A study of Mus musculus with 12 samples.

Results

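The 32 genes described here encode subunits of glutamate receptors and the auxiliary proteins that travel with them, and they were taken from a list of symbols drawn up by function. They comprise 4 AMPA receptor subunits, 6 NMDA receptor subunits, 5 kainate receptor subunits, 6 metabotropic receptors, 1 delta receptor, 6 transmembrane AMPA receptor regulatory proteins (TARPs), 2 cornichons and 2 Neto proteins. All 32 symbols matched 1 row each of the 55385 gene rows of the count table, and all 32 passed the filter on low counts that left 15905 genes for testing. RNA was measured by sequencing in the hippocampus of adult mice, with 3 libraries for each of 4 genotypes. Kcnip3 KO-5xFAD mice lacked Kcnip3 and carried the 5xFAD transgenes, 5xFAD mice carried the transgenes with Kcnip3 intact, Kcnip3 KO mice lacked Kcnip3 without transgenes, and WT mice had neither change. The protein made from Kcnip3 is KChIP3, also known as DREAM. It senses calcium, associates with potassium channels and represses transcription at the sites it binds. The 5xFAD transgenes are mutant human genes under Thy1 sequences, which drive expression mainly in neurons, so the model overexpresses its transgenes. The labels give no strain background, sex or age in months. They also do not tie each library to an animal of its own, so p-values measure only the spread between these libraries, which may be technical.

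Glutamate is the main excitatory transmitter of the hippocampus. AMPA, NMDA and kainate receptors are ion channels assembled from 4 subunits, whereas metabotropic receptors signal through G proteins, and the group III receptors among them (Grm4, Grm7, Grm8) sit largely at presynaptic terminals, where they reduce transmitter release. TARPs and cornichons bind AMPA receptors and Neto proteins bind kainate receptors, and in each case the partner alters trafficking and channel gating.

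The AMPA subunits are shown first as sequence, because they are close homologs that differ in base composition, a property the measurements below moved with. The stretches run over 63 bases of the coding sequence that forms the pore loop, written 5′ to 3′ from GENCODE M21 transcripts (GRCm38), with the codon of the Q/R site in capitals. That codon decides whether the channel passes calcium, because editing of the Gria2 RNA changes it from glutamine to arginine. It was CAG in Gria1, Gria2 and Gria3 and CAA in Gria4. Gene counts carry no information on editing.
Gria1: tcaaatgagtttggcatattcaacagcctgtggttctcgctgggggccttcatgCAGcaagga
Gria2: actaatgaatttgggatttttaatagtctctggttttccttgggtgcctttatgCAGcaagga
Gria3: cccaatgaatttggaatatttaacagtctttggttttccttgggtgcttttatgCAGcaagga
Gria4: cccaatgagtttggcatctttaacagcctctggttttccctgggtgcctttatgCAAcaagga
The Gria1 stretch lies in exon 11 of 16 at chr11:57243040-57243102 on the plus strand, Gria2 in exon 11 of 16 at chr3:80706905-80706967 on the minus strand, Gria3 in exon 11 of 16 at chrX:41610211-41610273 on the plus strand, and Gria4 in exon 12 of 17 at chr9:4464131-4464193 on the minus strand. Identity between pairs ran from 77.8% for Gria1 and Gria2 to 88.9% for Gria2 and Gria3. GC content was 50.8% in the Gria1 stretch, 38.1% in those of Gria2 and Gria3, and 47.6% in that of Gria4. Over the longest annotated transcript it was 48.5% for Gria1, 36.8% for Gria2, 39.8% for Gria3 and 44.3% for Gria4.

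A second set of sequences is the region upstream of the 4 genes whose counts passed the test in 5xFAD against WT. KChIP3 binds the downstream regulatory element, whose core is GTCA. The window of 250 bases before the start site (RefSeq, GRCm38.p6) was searched for GTCA on both strands. It was also searched for the cAMP response element TGACGTCA, which contains GTCA. Bases after the start site were not searched, so the counts below say nothing of matches there. What is printed is the part of each window that also lies upstream of the GENCODE gene start, on the strand of the gene, with GTCA in capitals.
Gria4: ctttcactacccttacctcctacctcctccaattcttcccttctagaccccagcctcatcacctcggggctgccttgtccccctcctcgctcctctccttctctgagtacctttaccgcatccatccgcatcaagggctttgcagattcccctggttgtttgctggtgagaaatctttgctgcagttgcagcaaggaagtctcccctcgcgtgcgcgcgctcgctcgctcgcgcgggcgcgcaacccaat
Grik4: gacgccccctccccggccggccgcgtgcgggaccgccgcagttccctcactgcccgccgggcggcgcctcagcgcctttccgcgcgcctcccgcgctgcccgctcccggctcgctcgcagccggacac
Grm7: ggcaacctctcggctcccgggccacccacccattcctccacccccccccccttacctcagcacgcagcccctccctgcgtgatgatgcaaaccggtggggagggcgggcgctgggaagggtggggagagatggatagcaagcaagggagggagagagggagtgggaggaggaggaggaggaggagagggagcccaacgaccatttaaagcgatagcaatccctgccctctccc
Grm8: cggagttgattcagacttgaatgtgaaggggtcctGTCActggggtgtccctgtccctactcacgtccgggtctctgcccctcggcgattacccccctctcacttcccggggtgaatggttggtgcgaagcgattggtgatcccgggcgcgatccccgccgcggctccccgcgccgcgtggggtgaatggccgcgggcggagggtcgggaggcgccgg
The printed regions are chr9:4796235-4796484 on the minus strand for Gria4, chr9:42944494-42944621 on the minus strand for Grik4, chr6:110645348-110645580 on the plus strand for Grm7 and chr6:28135179-28135396 on the minus strand for Grm8. The Grm8 window held 1 match to GTCA and the other 3 windows held 0. For each gene this was the window whose start site lies nearest the GENCODE gene start. Start sites with a window numbered 2 for Grm7 and 3 for Grm8, so these matches are not totals for those genes. RefSeq promoter windows matched 21 of the 32 genes, with 26 windows in all. GTCA stood in 13 of those 26 windows, against 80.2% of all 32851 windows. The full cAMP response element stood in 0 of the 26 and in 1.55% of all windows. The windows of the 21 genes had a median GC content of 62.2%, against 52.4% over all windows.

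The libraries held 7664407 to 11310714 counts. Levels are given as CPM, counts per 1e+06 counts after TMM scaling, and levels of different genes are compared only as TPM, which also divide by transcript length. The 2 genes that check the labels placed some libraries against them. Thy1, whose sequences are in the transgenes, held 3380, 926 and 2590 CPM in Kcnip3 KO-5xFAD, 2870, 4240 and 2950 in 5xFAD, 749, 792 and 868 in Kcnip3 KO, and 747, 887 and 2280 in WT. The library labelled Kcnip3 KO-5xFAD 2 thus held a level near that of mice without transgenes, and the library labelled WT 3 a level near that of mice with them. Kcnip3 held 84.9, 68.7 and 70.1 CPM in Kcnip3 KO-5xFAD, 139, 156 and 138 in 5xFAD, 71.4, 63.4 and 125 in Kcnip3 KO, and 160, 158 and 162 in WT, and the library labelled Kcnip3 KO 3 lay closer to the libraries with Kcnip3 intact than to the other knockout libraries. Each comparison is therefore also given from the 10 libraries without WT 3 and Kcnip3 KO-5xFAD 2. Summed markers of CA pyramidal neurons (393 to 726 CPM) and dentate granule neurons (42.1 to 187 CPM) were detected in every library, and the summed markers of neighbouring tissue ranged from 277 to 9030 CPM, most of it Ttr of the choroid plexus. Mitochondrial genes took 3.58% to 3.74% of the counts in 5xFAD, the lowest of the genotypes, against 3.84% to 5.1% in WT, and the part of this in the results was not tested.

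Per length, transcripts of Cnih2, a cornichon that slows AMPA receptor gating, stood above all other members at a mean of 852 TPM over the 12 libraries. Gria1 followed at 301 TPM, Grik5, a kainate subunit that needs a partner subunit to form channels, at 246 TPM, and the TARP gene Cacng7 at 242 TPM. The obligatory NMDA subunit Grin1 averaged 164 TPM. The Grm2 mean was 50.7 TPM, the highest of the metabotropic receptors, and the Grm8 mean of 2.29 TPM was the lowest of the 32. The highest delta and Neto levels were those of Grid1 at 31.9 TPM and Neto1 at 18.5 TPM. Ranges of libraries overlapped for many neighbours in this order, as for Grik5 and Cacng7.

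**Figure D1:**
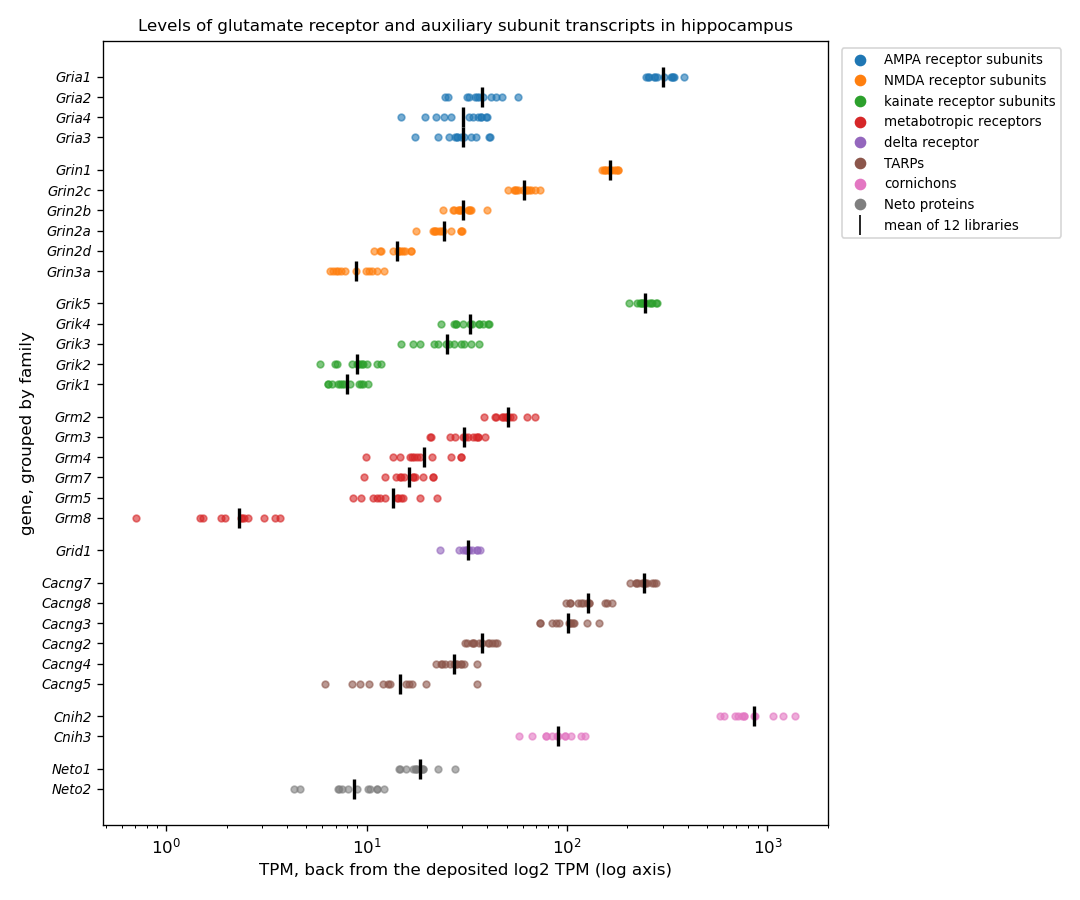
Level of each gene in TPM on a log axis, grouped by family, with 1 point per library and a black tick at the mean of the 12 libraries. Cnih2, Gria1, Grik5, Cacng7 and Grin1 stand highest, and Grm8 lowest.

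In 5xFAD against WT, 3 of the 32 genes fell (Gria4, Grm7 and Grm8) and 1 rose (Grik4). Gria4 (ENSMUSG00000025892) lies at chr9:4417896-4796234, Grik4 (ENSMUSG00000032017) at chr9:42518135-42944493, Grm7 (ENSMUSG00000056755) at chr6:110645581-111567230 and Grm8 (ENSMUSG00000024211) at chr6:27275119-28135178 (GRCm38). By edgeR's quasi-likelihood test, 1.62% of all genes tested passed as lower and 1.91% as higher at an adjusted p under 0.05. The median log2 fold change of the 32 genes was -0.22, against 0.01 over all genes tested, with 11 means higher and 21 lower in 5xFAD. At an unadjusted p under 0.05 there were 5 higher and 11 lower, against 25.3% of all genes in either direction. In 13 of the 32 genes the 3 libraries of 5xFAD did not overlap the 3 of WT, 2 all higher and 11 all lower, against 27.6% of all genes. In tissue RNA, fewer cells of a type and less RNA per cell cannot be told apart.

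The AMPA subunits did not move alike. Gria4, a subunit of fast-gating AMPA receptors, held 65.9, 44.9 and 61.4 CPM in Kcnip3 KO-5xFAD, 50.8, 33.2 and 39.8 in 5xFAD, 67.3, 73 and 47.6 in Kcnip3 KO, and 69.4, 69 and 71.8 in WT. Every 5xFAD library lay below every WT library, and Gria4 fell to a mean of 41.3 ± 8.9 CPM in 5xFAD, against 70.1 ± 1.48 in WT (SD, n = 3 each). The log2 fold change was -0.76 ± 0.18 (SE, adjusted p = 0.0426 by edgeR). Gria2, the subunit whose edited form keeps calcium out, held 174, 222 and 179 CPM in Kcnip3 KO-5xFAD, 150, 135 and 128 in 5xFAD, 256, 157 and 158 in Kcnip3 KO, and 192, 169 and 214 in WT. Its 5xFAD libraries were also all below WT, but it did not pass the test (-0.48, adjusted p = 0.118), and its sign turned to 0.05 once transcript length and GC content were corrected for. Gria3, on the X chromosome, had a similar value at -0.54 (adjusted p = 0.0511), again without overlap, and -0.20 with that correction.

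Gria1, the most abundant AMPA subunit, held 619, 750 and 498 CPM in Kcnip3 KO-5xFAD, 473, 721 and 647 in 5xFAD, 595, 537 and 517 in Kcnip3 KO, and 443, 520 and 443 in WT. The groups overlapped, since 5xFAD 1 lay below WT 2, and the log2 fold change of 0.39 ± 0.16 did not pass (adjusted p = 0.153). As a share of the AMPA subunits' summed TPM, Gria1 made up 77.0% ± 3.3 in Kcnip3 KO-5xFAD, 81.1% ± 5.62 in 5xFAD, 74.1% ± 2.46 in Kcnip3 KO and 69.3% ± 3.29 in WT (SD, n = 3 each). Its share was 74.8%, 85.5% and 83% in the 5xFAD libraries, against 68.4%, 72.9% and 66.5% in the WT libraries, without overlap. The ratio of Gria2 to Gria1 in TPM was 0.123, 0.0728 and 0.0769 in 5xFAD and 0.169, 0.126 and 0.188 in WT, so the highest 5xFAD library came close to the lowest WT library. The summed TPM of the 4 subunits was 377.8 ± 30.7 in 5xFAD and 376.4 ± 13.7 in WT, a difference smaller than the spread between libraries. These sums carry no TMM scaling. On the deposited log2 TPM the median of all genes was -0.13 in 5xFAD against WT, so near-equal sums do not mean equal levels relative to other genes.

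No NMDA receptor subunit passed the test. Grin1 held 481, 511 and 444 CPM in Kcnip3 KO-5xFAD, 489, 590 and 510 in 5xFAD, 440, 497 and 545 in Kcnip3 KO, and 432, 533 and 433 in WT. These libraries overlapped, and the log2 fold change in 5xFAD against WT was 0.19 ± 0.12 (adjusted p = 0.332). The antisense gene Grin1os shares 1307 exon bases with Grin1, and antisense genes also overlap exons of Grin2b, Grin2d, Grm2, Cacng2 and Neto1, whose counts could hold reads of both strands. Grin2a and Grin2b, the main regulatory subunits of the forebrain, had -0.11 ± 0.15 and -0.12 ± 0.11, and both turned positive with the length and GC correction. The TPM ratio of Grin2b to Grin2a averaged 1.23 in Kcnip3 KO-5xFAD, 1.27 in 5xFAD, 1.27 in Kcnip3 KO and 1.28 in WT, with standard deviations of 0.142, 0.0757, 0.136 and 0.173. Grin2c was the NMDA subunit nearest the threshold, at 0.36 (adjusted p = 0.0882), and its 5xFAD libraries were all above WT. Grin2d and Grin3a had 0.18 and -0.33, with overlapping libraries.

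Among kainate subunits, Grik4, a high-affinity subunit known from CA3 and dentate neurons, was the member that rose. It held 66.4, 69.5 and 50.2 CPM in Kcnip3 KO-5xFAD, 59.7, 86.5 and 73.2 in 5xFAD, 52.3, 58.2 and 74.6 in Kcnip3 KO, and 48.4, 50.5 and 40.3 in WT. Every library of the other 3 genotypes except Kcnip3 KO-5xFAD 3 exceeded the highest WT library, and 5xFAD against WT gave 0.65 ± 0.17 (adjusted p = 0.0489). The related Grik5 held 422, 393 and 361 CPM in Kcnip3 KO-5xFAD, 378, 512 and 427 in 5xFAD, 334, 369 and 420 in Kcnip3 KO, and 314, 442 and 353 in WT, with overlap and 0.25 ± 0.14 (adjusted p = 0.282). Grik3 held 59.4, 49.3 and 69.9 CPM in Kcnip3 KO-5xFAD, 62, 47.1 and 53.3 in 5xFAD, 85.7, 77.3 and 84.9 in Kcnip3 KO, and 66.3, 74.2 and 94.8 in WT. All 3 Grik3 libraries of 5xFAD were below WT, and its value of -0.53 missed the threshold (adjusted p = 0.0598). Grik1 and Grik2, which form kainate channels on their own, had -0.25 and -0.34 without passing (adjusted p = 0.27 and 0.169), and Grik2 turned positive with the length and GC correction.

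**Figure D2:**
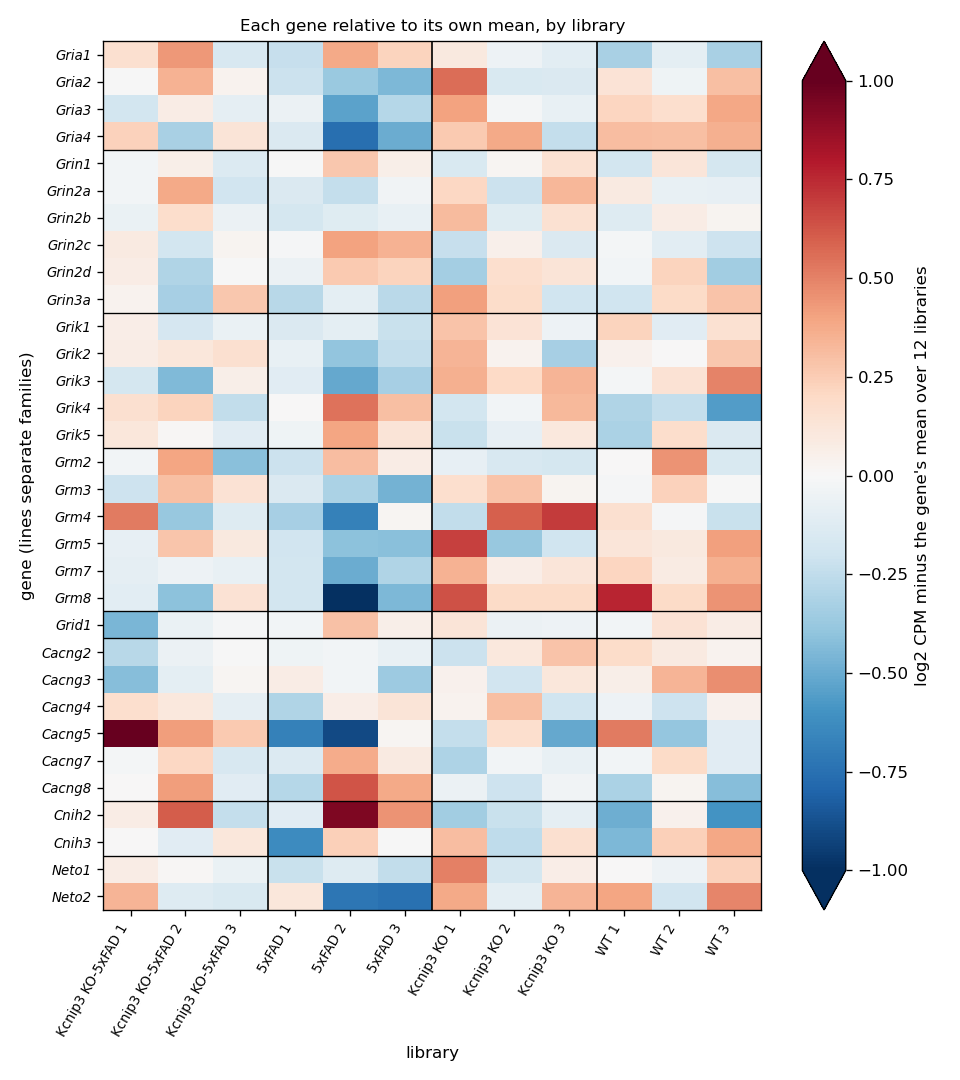
Log2 CPM of each gene minus its mean over the 12 libraries, with 1 column per library, 1 row per gene, black lines between genotypes and families, and the color scale ending at -1 and 1. Libraries 5xFAD 2 and 5xFAD 3 carry the low values of Gria2, Gria3, Gria4, Grm5, Grm7, Grm8 and Neto2 and the high values of Grik4, Cacng8 and Cnih2, while 5xFAD 1 is paler.

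All 6 metabotropic receptors had lower means in 5xFAD than in WT, a direction kept under each scaling and correction tried, except that Grm2 turned to 0.13 without WT 2 and to 0.07 without 5xFAD 1. Of the 6, 2 fell. Grm7, a presynaptic group III receptor of low glutamate affinity, held 26.8, 27.4 and 27.1 CPM in Kcnip3 KO-5xFAD, 25, 20.1 and 23.2 in 5xFAD, 36.4, 29.8 and 31.1 in Kcnip3 KO, and 33.2, 30.2 and 36.5 in WT. All 6 libraries labelled with the transgenes lay below all 6 labelled without them. This separation holds for the labels only. The WT library at 36.5 CPM, the highest of all libraries, held Thy1 near the level of mice with transgenes. Grouped by Thy1 level instead, the Grm7 values overlapped. Grm7 had the smallest p of the 32 genes, with -0.54 ± 0.12 (adjusted p = 0.0339). An antisense gene, Gm20387, shares 130 exon bases with Grm7, and whether the counting used strand is not given in the sources used here.

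Grm8, another group III receptor, was the least expressed member, with 16 to 100 reads per library. It held 5.77, 4.67 and 6.88 CPM in Kcnip3 KO-5xFAD, 5.46, 2.27 and 4.53 in 5xFAD, 9.72, 7.13 and 7.14 in Kcnip3 KO, and 10.6, 7.12 and 8.56 in WT. The 6 libraries labelled with the transgenes were again all below the 6 labelled without. By Thy1 level, the WT library at 8.56 CPM stood with the transgene carriers. The Kcnip3 KO-5xFAD library at 4.67 CPM stood with the mice lacking transgenes. Grouped that way, the Grm8 values overlapped. For Grm8, 5xFAD against WT gave -1.08 ± 0.28 (adjusted p = 0.0486). The third group III gene, Grm4, held 48.2, 25.9 and 30.8 CPM in Kcnip3 KO-5xFAD, 26.7, 21 and 34.2 in 5xFAD, 28.3, 51.1 and 54.7 in Kcnip3 KO, and 37.6, 33.5 and 28.8 in WT, with overlap and -0.28 (adjusted p = 0.56).

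Grm3, a group II receptor found in astrocytes as well as neurons, held 24.4, 34.6 and 31.1 CPM in Kcnip3 KO-5xFAD, 25.4, 22.5 and 20.3 in 5xFAD, 31.6, 34.3 and 28.7 in Kcnip3 KO, and 27.9, 33.1 and 28 in WT. Its 5xFAD libraries were all below WT, at -0.39 (adjusted p = 0.119). Grm2, the other group II receptor, held 73.8, 99 and 56.5 CPM in Kcnip3 KO-5xFAD, 64.9, 93.4 and 79.3 in 5xFAD, 71.2, 67.3 and 66.9 in Kcnip3 KO, and 75.7, 103 and 67.7 in WT, and its value of -0.05 was within its standard error of 0.20. Grm5, the postsynaptic group I receptor, had -0.56 without overlap (adjusted p = 0.154), and -0.22 with the length and GC correction. The summed TPM of the 6 receptors was 131.8 ± 10.7 in Kcnip3 KO-5xFAD, 109.5 ± 5.01 in 5xFAD, 143.7 ± 8.14 in Kcnip3 KO and 146.3 ± 9.49 in WT (SD, n = 3 each). By library it was 113, 104 and 112 TPM in 5xFAD, against 142, 157 and 140 TPM in WT. TPM carry no TMM scaling, and the median log2 fold change of all genes on the deposited log2 TPM was -0.13 in this comparison. Some of the difference in the sums was thus shared by all genes.

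**Figure D3:**
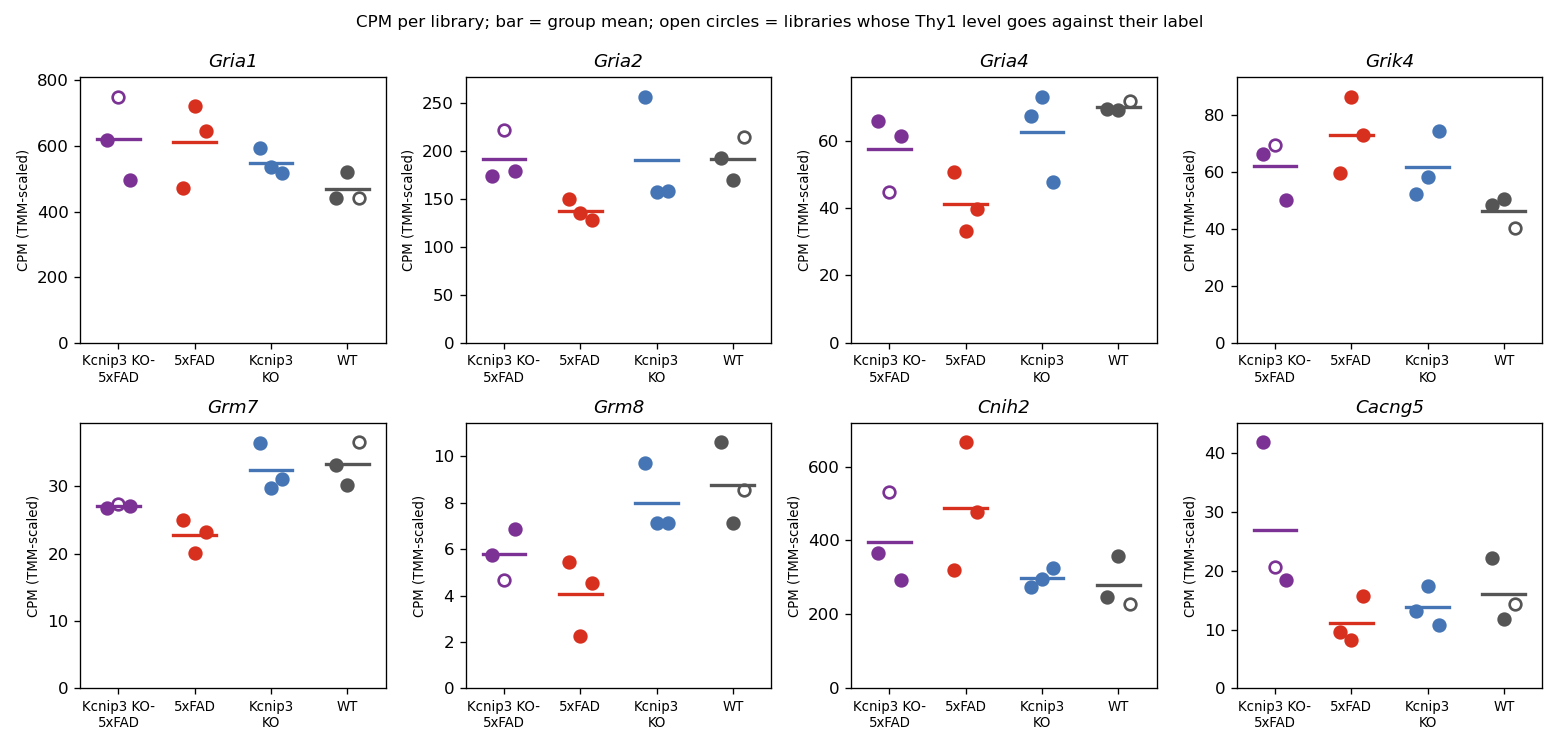
CPM per library for 8 genes, with genotypes on the horizontal axis, bars at group means and open circles for the libraries labelled Kcnip3 KO-5xFAD 2 and WT 3. Gria4, Grm7 and Grm8 have their lowest group mean in 5xFAD, Grik4 has it in WT, and Cacng5 is highest in Kcnip3 KO-5xFAD 1.

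The delta receptor and the auxiliary proteins gave no call in 5xFAD against WT. Grid1, which organises synapses through cerebellins, held 42.4, 55.6 and 57.6 CPM in Kcnip3 KO-5xFAD, 56.9, 71 and 60.4 in 5xFAD, 63.4, 55.7 and 56.2 in Kcnip3 KO, and 57.1, 64.2 and 61.1 in WT, a difference of 0.04 ± 0.12. Of the TARPs, Cacng7 held 178, 209 and 162 CPM in Kcnip3 KO-5xFAD, 165, 235 and 193 in 5xFAD, 146, 178 and 172 in Kcnip3 KO, and 178, 207 and 168 in WT, with 0.10 ± 0.14. Both genes overlapped between the groups, and their small differences turned negative on the deposited log2 TPM.

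Cacng8, the TARP enriched in hippocampus, had 0.51 (adjusted p = 0.148), or 0.29 with the length and GC correction, and Cacng2, which encodes stargazin, had -0.15 without overlap (adjusted p = 0.432). Cacng3 held 62.5, 78.6 and 85.5 CPM in Kcnip3 KO-5xFAD, 88.5, 82.4 and 65.4 in 5xFAD, 86.7, 73.7 and 90.9 in Kcnip3 KO, and 87.6, 107 and 116 in WT. It had -0.40 in 5xFAD against WT (adjusted p = 0.118), and only the library 5xFAD 1, which passed WT 1, made the groups overlap. Cacng4 had 0.05, a sign that turned with library size scaling, and Cacng5 had -0.50, each with overlap.

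Cnih2 held 365, 530 and 294 CPM in Kcnip3 KO-5xFAD, 321, 665 and 476 in 5xFAD, 273, 297 and 326 in Kcnip3 KO, and 248, 358 and 229 in WT. Its 5xFAD mean of 487 ± 172 CPM stood above the WT mean of 278 ± 69.4, but 5xFAD 1 was below WT 2, and 0.81 ± 0.28 did not pass (adjusted p = 0.108). With the length and GC correction it was 0.49. The related cornichon Cnih3 had -0.19 (adjusted p = 0.646), and 0.02 without 5xFAD 1. Neto1 held 49.2, 47 and 44.6 CPM in Kcnip3 KO-5xFAD, 40, 42.7 and 39.3 in 5xFAD, 66.4, 41.4 and 48.9 in Kcnip3 KO, and 46.9, 45 and 54.7 in WT. All its 5xFAD libraries were below WT, at -0.27 (adjusted p = 0.267), a sign that turned with the length and GC correction. Neto2 had -0.67 (adjusted p = 0.124), or -0.22 with that correction, and its library 5xFAD 1 lay above WT 2.

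**Figure D4:**
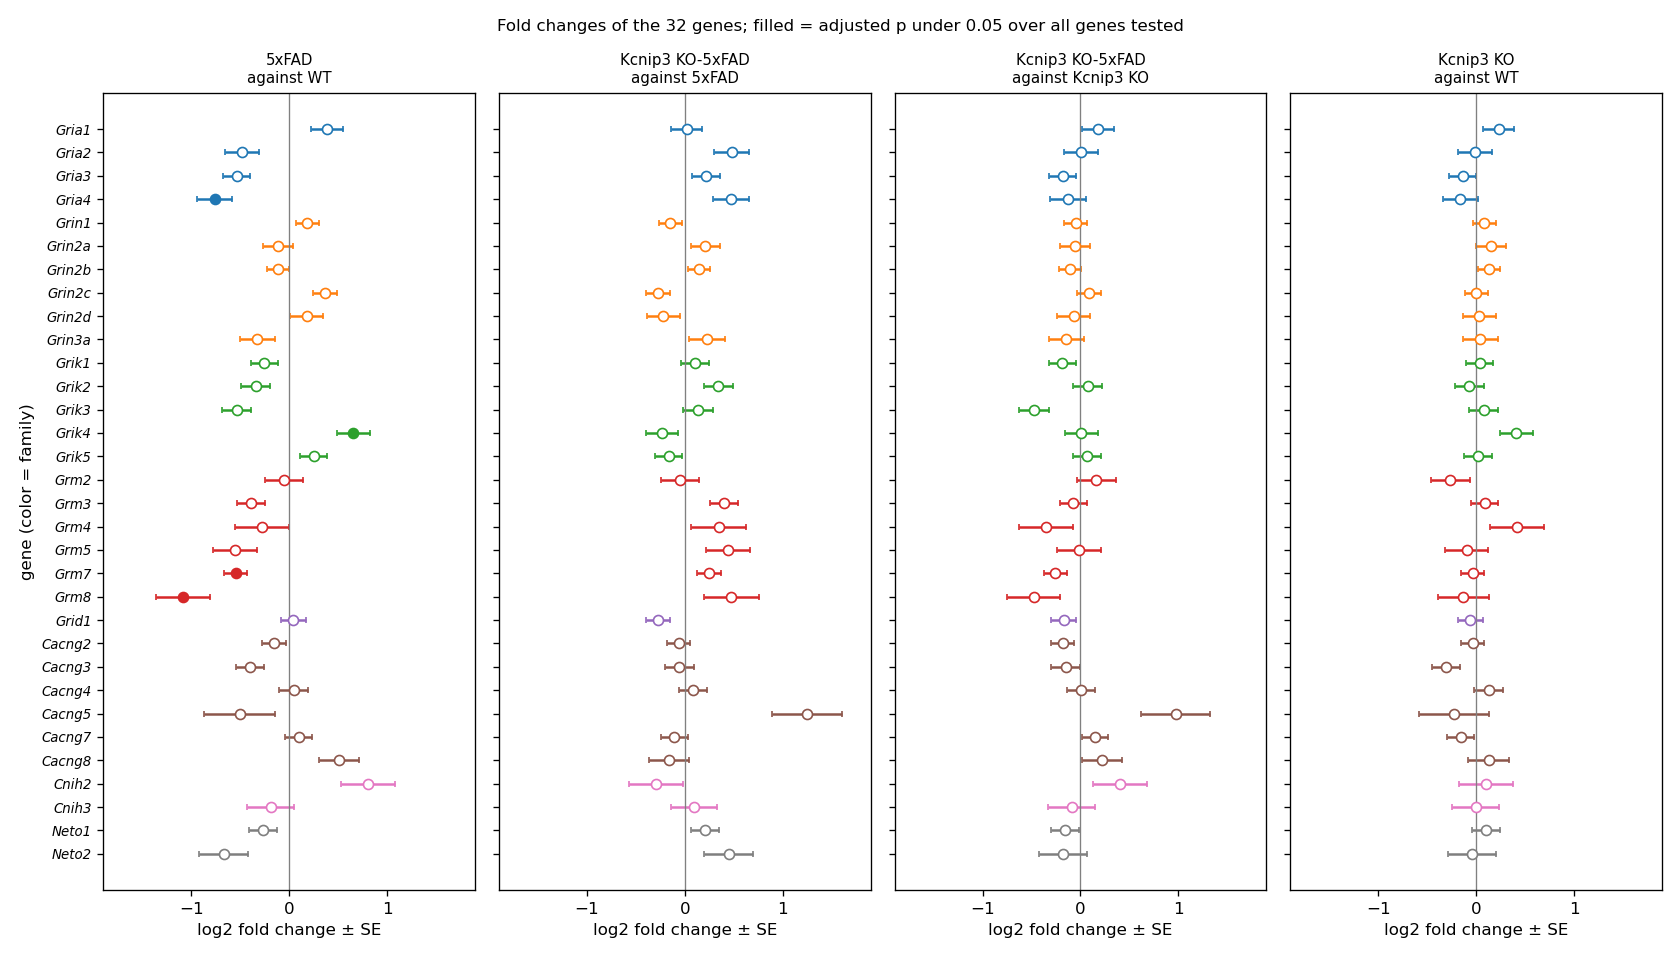
Log2 fold change with its standard error for each gene in 4 comparisons, colored by family, with filled points where the adjusted p was under 0.05. The 4 filled points are Gria4, Grik4, Grm7 and Grm8 in 5xFAD against WT.

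The direction of a gene in 5xFAD against WT went with the GC content of its transcript. Of the 16 members above the members' median GC of 50.5%, 9 had higher and 7 lower means, with a median log2 fold change of 0.07. Of the 16 members below it, 2 had higher and 14 lower means, with a median of -0.36. Across the 32 genes, Spearman's rho between GC content and log2 fold change was 0.69, or 0.65 from the 10 libraries, and across all 15898 genes tested with a transcript it was 0.42. These are descriptions over genes that share their libraries.

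Library by library, the mean of the GC-rich members minus that of the GC-poor members, each relative to its mean over all libraries, was 0.12, 0.01 and -0.08 (log2) in Kcnip3 KO-5xFAD, -0.04, 0.48 and 0.37 in 5xFAD, -0.48, 0.03 and 0.08 in Kcnip3 KO, and -0.19, 0.01 and -0.31 in WT. Values of 5xFAD 2 and 5xFAD 3 were the highest, and 5xFAD 1 lay among the WT libraries. The 2 libraries were also highest over 13932 genes with a mean log2 CPM above 1, whose rho with GC content was 0.16, 0.45 and 0.44 in 5xFAD and -0.33, 0.15 and -0.39 in WT. With a smooth trend on transcript length and GC content removed from each library, 1 of the 32 genes was called, Grm7 at -0.46 (adjusted p = 0.0482), and calls over all genes numbered 106 (0.666%), against 562 (3.53%) without the correction. Gria4 then had -0.55 (adjusted p = 0.0866), Grm8 -0.83 (adjusted p = 0.0908) and Grik4 0.72 (adjusted p = 0.116). Gria2 turned to 0.05, Grik2 to 0.14, Grin2a to 0.18 and Grin2b to 0.12, and the median of the 32 genes was -0.10.

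**Figure D5:**
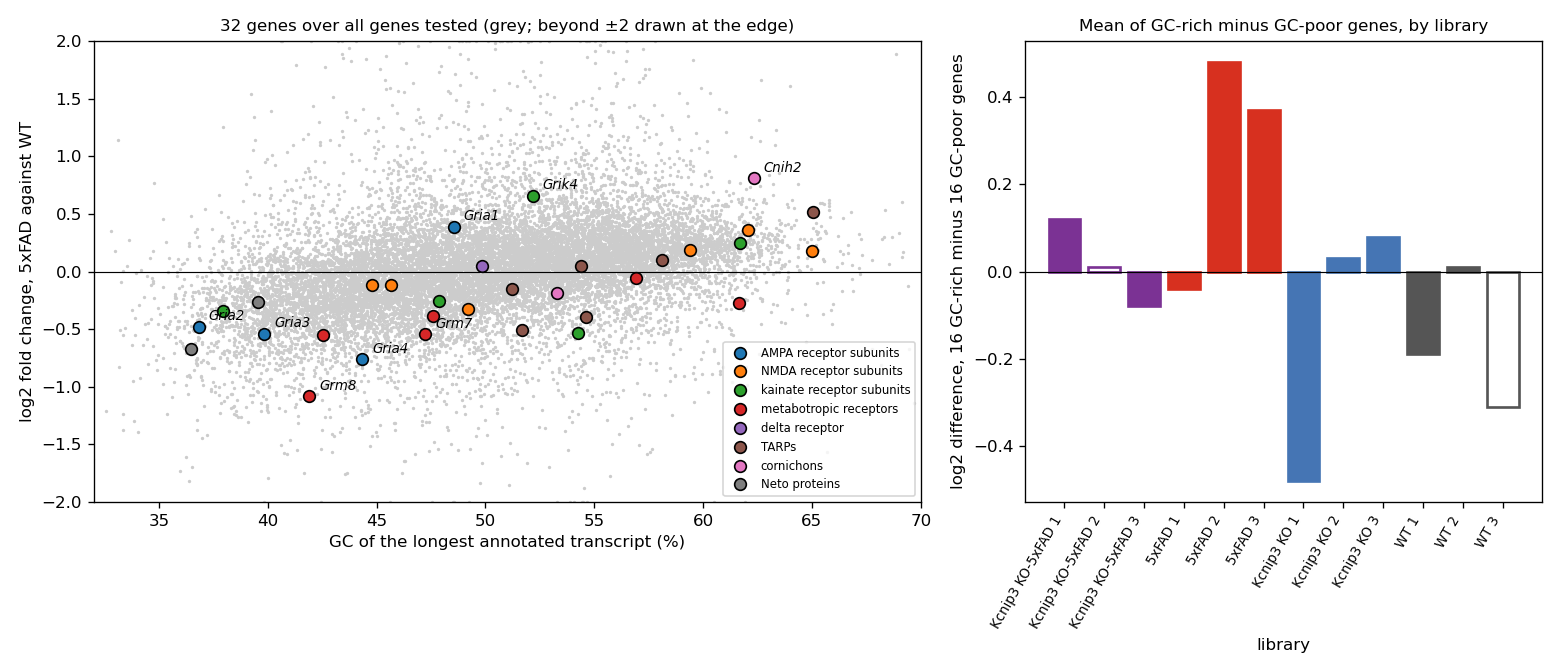
Left, log2 fold change in 5xFAD against WT by GC content of the longest annotated transcript, with the 32 genes colored by family over all genes tested in grey, whose points beyond -2 or 2 are drawn at that limit. Right, mean log2 level of the 16 GC-rich minus the 16 GC-poor genes in each library, with open bars for the libraries labelled Kcnip3 KO-5xFAD 2 and WT 3. Points run upward with GC content on the left, and 5xFAD 2 and 5xFAD 3 have the highest values on the right.

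The calls also depended on single libraries. From the 10 libraries without WT 3 and Kcnip3 KO-5xFAD 2, edgeR called 0 of the 32 genes, against 1.3% of all genes, and 3 were higher and 6 lower at an unadjusted p under 0.05, against 1239 higher and 1138 lower of 16076 genes. Gria4 then had -0.75 (adjusted p = 0.0859), Grm7 -0.47 (adjusted p = 0.143), Grm8 -1.10 (adjusted p = 0.128) and Grik4 0.56 (adjusted p = 0.195). The median of the 32 genes was -0.18, again with 11 means higher and 21 lower. Leaving out WT 1, WT 3, 5xFAD 2, 5xFAD 3 or Kcnip3 KO-5xFAD 3 alone also ended all 4 calls, and leaving out 5xFAD 1 raised the count to 11, with 13.1% of all genes called. Without WT 1, 5xFAD 2 or 5xFAD 3 a single gene was called among all genes tested, and without WT 3 there were 13.

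Loss of Kcnip3 without the transgenes called none of the 32 genes. In Kcnip3 KO against WT, 0.0503% of all genes passed the edgeR test, or 0.0435% with 10 libraries, and the 32 genes had a median of 0.01 (log2), with 17 means higher and 15 lower. Grik4 was the 1 gene at an unadjusted p under 0.05, against 4.51% of all genes, and it was also the member without overlap, against 9.46% of all genes. Grik4 averaged 61.7 ± 11.5 CPM in Kcnip3 KO and 46.4 ± 5.38 in WT, a log2 fold change of 0.41 ± 0.17 (adjusted p = 0.999). Cacng3, at -0.31 ± 0.15, and Grm4, at 0.42 ± 0.28, were next by p, and both overlapped. From the 10 libraries, 0 of the 32 were called, Grik4 had 0.32 ± 0.18, and Grm2, at -0.39 ± 0.17 (adjusted p = 1), was the 1 gene at an unadjusted p under 0.05, against 297 higher and 341 lower of 16076 genes. Without Kcnip3 KO 3 as well, 0 were called, with 20 means higher and 12 lower. DESeq2 and limma-voom also called 0 of the 32 here and in the comparisons that follow.

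In Kcnip3 KO-5xFAD against 5xFAD, which shares the 5xFAD libraries with the comparison above, edgeR again called 0 of the 32 genes, against 0.0692% of all genes, or 0.0373% with 10 libraries. The median was 0.12, with 20 means higher and 12 lower. At an unadjusted p under 0.05, 5 genes were higher and 2 lower, against 10.4% of all genes, and 7 genes had all Kcnip3 KO-5xFAD libraries above all 5xFAD libraries, against 16.3% of all genes in either direction. Those 7 were Gria2, Grin2b, Grik2, Grm5, Grm7, Cacng5 and Neto1. Gria2 averaged 191.6 ± 26.8 CPM in Kcnip3 KO-5xFAD and 137.7 ± 11.4 in 5xFAD (0.48 ± 0.17, adjusted p = 0.439). Grm3 averaged 30.0 ± 5.16 CPM in Kcnip3 KO-5xFAD and 22.7 ± 2.57 in 5xFAD (0.40 ± 0.14, adjusted p = 0.438). Of the 16 GC-poor members, 15 had higher means in Kcnip3 KO-5xFAD, against 5 of the 16 GC-rich members. With the length and GC correction the median was 0.05. From the 10 libraries 0 of the 32 were called, with Cacng5 and Gria4 higher and Grid1 lower at an unadjusted p under 0.05, against 903 higher and 587 lower of 16076 genes. Gria2 then had 0.36 and Grm3 0.29.

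Cacng5, a TARP of low abundance, gave the smallest p of that comparison. It held 41.8, 20.7 and 18.5 CPM in Kcnip3 KO-5xFAD, 9.65, 8.22 and 15.7 in 5xFAD, 13.1, 17.4 and 10.8 in Kcnip3 KO, and 22.2, 11.8 and 14.3 in WT. Kcnip3 KO-5xFAD 1 stood far above the others of its group, and all 3 exceeded every 5xFAD and Kcnip3 KO library. The log2 fold change was 1.25 ± 0.36 against 5xFAD (adjusted p = 0.426) and 0.98 ± 0.35 against Kcnip3 KO (adjusted p = 0.371). Without Kcnip3 KO-5xFAD 1 these were 0.79 and 0.51, and from the 10 libraries 1.41 and 1.14.

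In Kcnip3 KO-5xFAD against Kcnip3 KO, edgeR called 0 genes in all, 0% of those tested, or 1.3% with 10 libraries, where 0 of the 32 were called. The median of the 32 genes was -0.07, with 12 means higher and 20 lower. At an unadjusted p under 0.05 stood Cacng5 as higher and Grik3 and Grm7 as lower, against 10.4% of all genes. The libraries of Cacng5 (higher) and of Grik3, Grm7 and Grm8 (lower) did not overlap, against 15.6% of all genes. Grik3 averaged 59.5 ± 10.3 CPM in Kcnip3 KO-5xFAD and 82.7 ± 4.65 in Kcnip3 KO (-0.47 ± 0.15, adjusted p = 0.302). From the 10 libraries Grik3 had -0.36 and Grm7 -0.27. Without Kcnip3 KO 3 as well, 0 were called and 1 was lower at an unadjusted p under 0.05, with 8 means higher and 24 lower. Grm7 averaged 27.1 ± 0.307 CPM in Kcnip3 KO-5xFAD and 32.4 ± 3.48 in Kcnip3 KO (-0.26 ± 0.12, adjusted p = 0.472). Grm8 had -0.48 (adjusted p = 0.57).

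The difference between those 2 transgene effects was tested as an interaction, in which a positive value means a higher effect without Kcnip3. It called 0% of all genes and 0 of the 32, or 0.00622% of all genes and 0 of the 32 with 10 libraries. At an unadjusted p under 0.05 there were 3 of the 32, against 5.26% of all genes. These were Cacng5 at 1.48 ± 0.50, Gria4 at 0.64 ± 0.26 and Grik4 at -0.65 ± 0.24, each with an adjusted p of 0.853. From the 10 libraries the same 3 genes stood under that p, at 1.72, 0.77 and -0.64 (adjusted p = 0.991). For Grm7 and Grm8 the interaction was 0.29 ± 0.17 and 0.61 ± 0.39, so a difference of their effects between backgrounds was not detectable with 3 libraries a group.

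Genes around the receptors were read from lists chosen by function. The first list held 24 genes, other partners of AMPA and kainate receptors along with cerebellins, which act with delta receptors. Of these 24, 2 fell in 5xFAD against WT and 0 rose, against 1.62% and 1.91% of all genes. Shisa9, an AMPA receptor auxiliary subunit of dentate granule cells, held 36.8, 31.8 and 33.2 CPM in Kcnip3 KO-5xFAD, 25.3, 21.4 and 26.4 in 5xFAD, 42.1, 34.9 and 27.7 in Kcnip3 KO, and 34.1, 40.3 and 43.1 in WT (-0.68 ± 0.15, adjusted p = 0.0345). Its 5xFAD libraries were below all others. Cbln4, a cerebellin, held 13.5, 6.81 and 7.97 CPM in 5xFAD and 17.5, 20.8 and 25 in WT (-1.17 ± 0.30, adjusted p = 0.0492).

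Of 26 postsynaptic scaffold and trafficking genes, 1 fell and 0 rose. It was Dlg1, which encodes the scaffold SAP97, with 91.7, 57 and 65.5 CPM in 5xFAD and 110, 94 and 122 in WT (-0.61 ± 0.16, adjusted p = 0.0494). Without WT 3 and Kcnip3 KO-5xFAD 2 none of these 3 genes passed (adjusted p = 0.127 for Shisa9, 0.0958 for Cbln4 and 0.207 for Dlg1). Of 11 genes of glutamate supply and removal, 0 passed, with 0 higher and 2 lower at an unadjusted p under 0.05, against 25.3% of all genes in either direction. In the other comparisons 0 genes of these lists passed.

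Marker levels of other cell types also differed between the groups. Of 8 microglia markers, 5 rose in 5xFAD against WT, against 1.91% of all genes. The summed level of the 8 was 877 to 1120 CPM in 5xFAD and 309 to 515 CPM in WT, with Cst7 at 0 in WT 1 and Kcnip3 KO 2. Cst7 held 26.5 CPM in WT 3, the WT library with the highest sum. It held 66.6, 1 and 55.9 CPM in Kcnip3 KO-5xFAD 1, 2 and 3. With WT 3 and Kcnip3 KO-5xFAD 2 left out, 7 of the 8 passed the edgeR test in 5xFAD against WT, against 1.3% of all genes. Astrocyte markers summed to 4630 to 5720 CPM in 5xFAD and 2490 to 3130 CPM in WT, with 0 of 7 passing. Most of that difference was Gfap, at a mean of 2423 CPM in 5xFAD and 566 in WT. Of the 7, 5 had higher and 2 lower means in 5xFAD, with Gja1 at -0.43. Without WT 3 and Kcnip3 KO-5xFAD 2, Gfap passed the edgeR test (adjusted p = 0.0102), against 1.3% of all genes. Oligodendrocyte markers summed to 5960 to 8280 CPM in 5xFAD, 4670 to 8860 CPM in Kcnip3 KO and 3550 to 5880 CPM in WT. All 7 had higher means in 5xFAD against WT (median 0.57) and in Kcnip3 KO against WT (median 0.51), with 0 passing. At an unadjusted p under 0.05 there were 5 and 3, against 25.3% and 4.51% of all genes in either direction. Oligodendrocyte precursor markers summed to 515 to 598 CPM in 5xFAD and 533 to 588 CPM in WT, with 0 of 5 passing. General neuron markers summed to 3220 to 3450 CPM in 5xFAD and 4060 to 4190 CPM in WT. Of the 6, 1 fell, Snap25, against 1.62% of all genes. Most of that difference was Snap25, at a mean of 887 CPM in 5xFAD and 1445 in WT. In all, 1 had a higher mean and 5 had lower means. Map2 had -0.28, whereas Rbfox3 had 0.05, Tubb3 -0.06 and Nefl -0.065. Interneuron markers summed to 627 to 791 CPM in 5xFAD and 746 to 809 CPM in WT, with 0 of 6 passing. Dentate granule markers were at 86.1 to 146 CPM in 5xFAD and 42.1 to 78.5 CPM in WT, with 0 of 4 passing. All 4 had higher means in 5xFAD, but most of that difference was C1ql2, at 87.0 CPM in 5xFAD and 37.2 in WT. C1ql2 is also in the list of receptor partners. CA pyramidal markers were at 496 to 726 CPM in 5xFAD and 393 to 551 CPM in WT, with 0 of 6 passing. Most of that difference was Fibcd1, at a mean of 232.7 CPM in 5xFAD and 119.2 in WT. Of the 6, 5 had higher means and 1 a lower mean, with Wfs1 at -0.04 and Lmo3 at 0.002. The part of these shifts in the receptor values was not tested.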

How the data were processed

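Per the labels' protocols, RNA was extracted with Trizol from the hippocampus of the hemisphere opposite to one used for proteomics, and libraries were made with a TruSeq mRNA kit. The submitters' processing notes name the mm10 build, the aligner HISAT2 2.1.0, the counter featureCounts, edgeR 3.38.4 under R 4.2.1, and FastQC 0.11.9. No strand setting is stated. The authors deposited raw read counts per gene and log2 TPM values, and both were used as deposited.

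Counts were fitted with edgeR 4.0.16 (quasi-likelihood test, TMM scaling, filterByExpr by genotype, R 4.3.3) over all 12 libraries in 1 fit, with 5 contrasts and Benjamini-Hochberg adjustment over the 15905 genes tested. The deposited log2 TPM were turned back to TPM to compare levels between genes. GC content and length are those of the longest GENCODE M21 transcript, and 15898 genes tested had one. Alternatives used limma 3.58.1 and DESeq2 1.42.0, and the fits were tested on simulated data. The members and lists were chosen with earlier results of these data known. Named with values in every library are the genes called, the 3 with the smallest p in each comparison, and the highest of each family. No pair of the 66 library pairs held identical counts. The libraries of a group carry numbers, and 6 of 18 correlations between same-numbered libraries of different groups were over 0.1. What the numbers stand for is not stated in the labels. Depth limits precision most for Grm8, at 16 to 100 reads per library.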

Additional observations from a re-analysis of the deposited data

How the results depend on the processing

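The count of called genes in 5xFAD against WT, 4 of 32, was the least stable result. It was 1 with library size scaling (2.94% of all genes called), 1 by limma on the deposited log2 TPM (1.48%), 2 from the compared groups alone (2.5%), 1 with the length and GC correction (0.666%), 0 without WT 3 and Kcnip3 KO-5xFAD 2 (1.3%), and 1 also without Kcnip3 KO 3 (1.34%). With no filter it was 14 (6.7% of all genes called), beside 3 in Kcnip3 KO-5xFAD against 5xFAD (1.1%), 3 in Kcnip3 KO-5xFAD against Kcnip3 KO (2.27%) and 2 in the interaction (0.856%). Leaving out each library in turn gave 0 to 11 (0.00617% to 13.1% of all genes), and 0 in each of the other comparisons. DESeq2 called 6, and 1421 of the 15905 genes entered, 10.1% of those it gave an adjusted p. The reported fit called 562 and gave all 15905 an adjusted p. With DESeq2 size factors it was 5 (3.63% of all genes), by limma-voom 4 (3.57%) and with a stricter filter 5 (5.85%), beside 3.53% in the reported fit. The cause was not tested. Over 24 alternatives Grm7 was called in 15 (-0.69 to -0.46, adjusted p 0.00409 to 0.155), Gria4 in 14 (-0.93 to -0.55, 1.17e-06 to 0.172), Grik4 in 10 (0.5 to 0.78, 1.59e-05 to 0.2) and Grm8 in 9 (-1.32 to -0.83, 0.00096 to 0.175).

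The median over the 32 genes in 5xFAD against WT was -0.3 with library size scaling, -0.36 on log2 TPM, where the median of all genes was -0.13, and -0.1 with the length and GC correction. In Kcnip3 KO-5xFAD against 5xFAD it was 0.21 on log2 TPM and 0.05 with that correction, and in the interaction 0.13 with library size scaling and 0.14 on log2 TPM. Leaving out single libraries gave -0.06 to 0.03 in Kcnip3 KO against WT and 0.03 to 0.13 in the interaction. The sign turned for Grid1 (-0.03 with library size scaling, -0.1 on log2 TPM, -0.06 to 0.11 over single libraries left out), Cacng7 (-0.05 on log2 TPM, -0.14 with the correction, -0.05 without 5xFAD 2), Neto1 (0.17 with the correction) and Grm2 (0.13 without WT 2 and 0.07 without 5xFAD 1, with -0.19 the lowest over single libraries left out).

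With the replicate number as a block, 8 of the 32 genes were called in 5xFAD against WT and 1234 of all genes, against 562 without it, and 0 in each other comparison. Same-numbered libraries had correlations of -0.32 to 0.246, and 3 of 12 correlated best with their own number. Whether libraries of the same number share a batch was not tested.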
